A study of Mus musculus with 24 samples.

Results

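The Homer and Shank scaffold genes and the glutamate receptor gene Grm5 were described in bulk RNA sequencing of mouse prefrontal cortex at postnatal day 40. The 7 genes are Homer1, Homer2, Homer3, Shank1, Shank2, Shank3 and Grm5, matched by symbol among 18240 genes in the deposited table. They were chosen by name with their levels across the 4 arms, with and without a correction for olfactory bulb genes, already known, so those values are given as a description and support nothing by themselves. All 7 passed the minimum mean of 10 normalised counts that left 16825 genes for testing.

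The 24 libraries came from C57BL/6J mice of 4 arms: wild type on vehicle (WT vehicle), and mice heterozygous for the Dyrk1a I48X allele (HT) on vehicle, on fluoxetine, a serotonin reuptake inhibitor, or on lithium, a mood stabiliser. Each arm held 6 libraries, 3 from females and 3 from males. Drug-treated WT mice were not analysed here, so each drug is compared within HT mice. The sources used here name neither doses nor the length of treatment. No label ties each library to a separate animal, so the spread that p-values rest on may be in part technical.

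Homer proteins are adaptors of the postsynaptic density that bind group I metabotropic glutamate receptors, inositol trisphosphate receptors and Shank proteins through an N-terminal EVH1 domain. Long Homer forms also carry a coiled coil with which they multimerise, and the short form Homer1a lacks it and is induced by neuronal activity. Shank proteins are large scaffolds that link Homer to other scaffolds of excitatory synapses, and Grm5 encodes mGluR5, the group I receptor that couples to phospholipase C.

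Homer1 (ENSMUSG00000007617) lies on the plus strand of chromosome 13, from 93299635 to 93405129 on GRCm38. The annotation GENCODE M21 lists 12 transcripts for it, of which 11 are protein-coding: 8 have a coding sequence of 540 to 699 bases and 3 one of 1062 to 1110. The deposited table gives 1 value for the gene, so short and long forms are summed in every value below. The transcripts Homer1-204 (558 coding bases, 186 codons), Homer1-201 (1062 bases, 354 codons) and Homer1-203 (1098 bases, 366 codons) share their first 527 coding bases. The stretches where they part are shown because a gene-level value cannot separate them. The last 30 shared bases are in lower case and the 31 bases that follow, with which the short coding sequence ends, are in capitals.
Homer1-204: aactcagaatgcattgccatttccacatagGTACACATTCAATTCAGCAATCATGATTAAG
Homer1-201: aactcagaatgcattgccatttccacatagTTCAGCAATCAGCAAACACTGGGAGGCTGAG
Homer1-203: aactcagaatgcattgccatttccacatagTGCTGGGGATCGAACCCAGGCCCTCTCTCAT

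RefSeq promoter windows on GRCm38.p6 were found for 4 of the 7 genes (Homer1, Homer2, Homer3 and Shank3), and the 250 bases before the annotated start were searched for TGACG, the core of the cyclic AMP response element, on both strands (TGACG and CGTCA, with no overlap with another motif searched). Of 32851 windows of this length, 17.8% held at least 1 match and 0.688% held 3 or more. The first of 2 Homer1 windows held 3 matches, whose first bases stood 56, 40 and 14 bases before the start. The second Homer1 window, both Homer2 windows and the Homer3 and Shank3 windows held 0. The first window of each Homer gene is shown because Homer1 holds the motif and the other 2 do not. Capitals mark TGACG. A match is a description of the letters and not a site that was measured.
Homer1, chr13:93303507-93303756, plus strand: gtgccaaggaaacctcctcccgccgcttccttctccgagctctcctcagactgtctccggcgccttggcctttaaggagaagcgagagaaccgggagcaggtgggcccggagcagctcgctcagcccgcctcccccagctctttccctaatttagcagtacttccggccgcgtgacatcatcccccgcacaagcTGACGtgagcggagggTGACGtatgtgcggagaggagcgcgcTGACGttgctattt
Homer2, chr7:81706926-81707175, minus strand: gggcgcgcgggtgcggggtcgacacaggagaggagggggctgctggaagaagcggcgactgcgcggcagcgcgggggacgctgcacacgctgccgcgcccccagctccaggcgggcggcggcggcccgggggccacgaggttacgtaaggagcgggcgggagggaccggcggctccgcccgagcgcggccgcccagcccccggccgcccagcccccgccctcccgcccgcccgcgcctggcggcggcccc
Homer3, chr8:70282749-70282998, plus strand: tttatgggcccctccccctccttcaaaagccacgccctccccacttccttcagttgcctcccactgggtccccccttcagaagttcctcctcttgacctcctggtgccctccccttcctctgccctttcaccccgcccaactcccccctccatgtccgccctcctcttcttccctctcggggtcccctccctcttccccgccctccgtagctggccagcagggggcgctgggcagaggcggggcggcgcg

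Per kilobase of exon, Shank1 was the most abundant of the genes, at 1809 normalised counts per kilobase over the 24 libraries. Shank3 followed at 752 and Shank2 at 673 per kilobase, then Grm5 at 456 and Homer1 at 326. Homer2 stood at 231 per kilobase and Homer3 at 72.6. The Shank genes thus stood above the receptor and the receptor above the Homer genes, on a scale that divides by the summed exon length of each gene. Homer3 was the most variable between libraries, with a coefficient of variation of 33.9% and a highest value 2.67 times the lowest. Shank2 and Shank1 were the least variable, at 10.7% and 11.3%.

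Libraries held between 24133344 and 35940460 recovered reads. The targeted gene, Dyrk1a, averaged 2200 ± 90.8 normalised counts (SD, n = 6) in WT vehicle against 2355 ± 61.2 in HT vehicle, so its RNA level was not lower in libraries labelled HT, and a gene-level count does not show which allele was transcribed. All 6 lithium libraries and 1 fluoxetine library are of the batch labelled P40_L2 and the other 17 are of P40_L1, so lithium and batch cannot be told apart except through that 1 library. Slc17a7, a marker of cortical excitatory neurons, ran from 28907 to 53751 normalised counts in all libraries. Olfactory bulb genes were high in part of them. A bulb score, the mean log2(value + 1) of Cdhr1, Doc2g and Eomes, ran from 4.19 to 12.29. The 6 libraries with the highest scores are called bulb-high: WT vehicle female 2, HT vehicle female 2, HT vehicle male 3, HT fluoxetine female 1, HT fluoxetine male 1 and HT lithium male 1. The score averaged 9.30 ± 2.04 (SD, n = 6) in WT vehicle, 8.15 ± 2.96 in HT vehicle, 9.23 ± 2.83 in HT fluoxetine and 8.31 ± 2.88 in HT lithium. A further 4 libraries (WT vehicle female 1, HT vehicle female 1, HT vehicle male 1 and HT fluoxetine female 2) were high in the striatal marker Drd2 or the choroid plexus marker Ttr. Arm differences of the 7 genes are therefore given without this score and with it as a covariate.

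Homer1 was the member with the lowest level in HT vehicle relative to WT vehicle. In WT vehicle females it stood at 4827, 4564 and 4723 normalised counts, and in WT vehicle males at 4339, 4157 and 4119. In HT vehicle females it stood at 3462, 2937 and 3525, and in HT vehicle males at 3330, 4484 and 3047. Of the HT vehicle libraries, 5 of 6 lay below the lowest WT vehicle library and HT vehicle male 2 lay within the WT range; 0.535% of the 16825 genes showed 5 or more HT vehicle libraries below all WT vehicle libraries. In females all HT vehicle libraries lay below all WT vehicle libraries, as for 4.49% of genes in that direction. The arm means were 4455 ± 296 (SD, n = 6) and 3464 ± 550, a log2 difference of -0.37 ± 0.14 (SE; 95% interval -0.66 to -0.09). It was -0.51 ± 0.19 in females and -0.24 ± 0.19 in males.

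In HT fluoxetine, Homer1 ran from 3194 to 4525 normalised counts with a median of 4385. The fluoxetine libraries formed separate clusters: HT fluoxetine female 1 and male 1, both bulb-high, stood at 3280 and 3194, and the other 4 lay between 4334 and 4525. The log2 difference from HT vehicle was 0.22 ± 0.14 (95% interval -0.07 to 0.51). In HT lithium, Homer1 ran from 2638 to 4949 with a median of 3579, and so covered both the lowest and the highest value of the whole series. The difference from HT vehicle was 0.07 ± 0.14, and -0.13 with batch as a term, -0.04 without HT lithium female 2 and 0.19 without HT lithium female 1. The 3 comparisons share the HT vehicle libraries. Below the lowest WT vehicle library lay 2 of 6 fluoxetine and 4 of 6 lithium libraries. The share of all genes with such counts was not computed, so nothing is read from them.

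**Figure D1:**
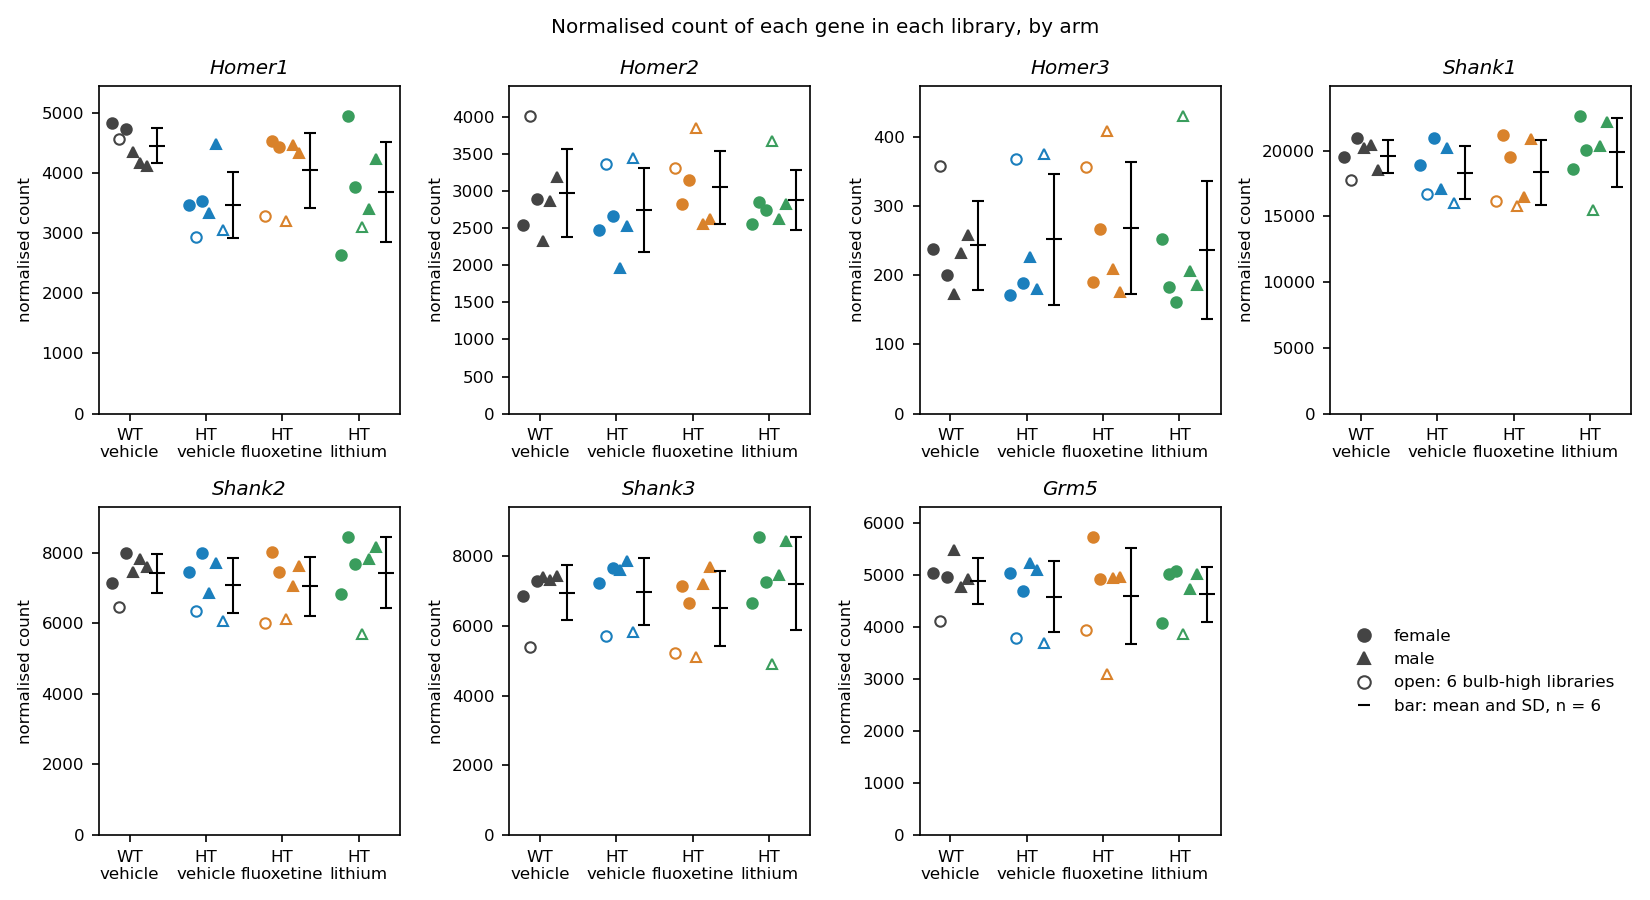
Normalised counts (y axis, from 0) of the 7 genes in each of 24 libraries, by arm (x axis), with circles for females, triangles for males, open symbols for the 6 bulb-high libraries, and bars for the mean and SD of 6 libraries. In Homer1, 5 of 6 HT vehicle libraries sit below all WT vehicle libraries, while in Homer3 and Shank3 the open symbols stand apart in every arm.

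Without the bulb score, limma called 0 of 7 members in any of the 6 arm comparisons, where it called between 0% and 0.0238% of all genes. In HT vehicle against WT vehicle it called 0 of 16825 genes. The unadjusted p was under 0.05 for 455 of them, of which Homer1 was the only member; edgeR and DESeq2 also called 0. DESeq2 called 0 of 7 members in the other arm comparisons too, where it called 0.0951% of genes for fluoxetine and 0.0178% for lithium against HT vehicle, 0.178% for lithium against fluoxetine, and 0.107% and 0.0297% for fluoxetine and lithium against WT vehicle. Once the bulb score entered as a covariate, limma called 5 genes in this comparison (0.0297%), and Homer1 was 1 of them, at -0.46 ± 0.08. The choice of genes used this contrast, so nothing is read from that call. Set to the mean bulb score, Homer1 stood between 3747 and 5380 normalised counts in WT vehicle and between 3058 and 3684 in HT vehicle, so 6 of 6 HT vehicle libraries lay below all WT vehicle libraries, as for 1.06% of genes set to that score. The call ended without any 1 of the 12 libraries of these arms, while the difference stayed between -0.43 and -0.50. Without the 6 bulb-high libraries it was -0.29 with no covariate and -0.50 with it, and without the 4 libraries high in Drd2 or Ttr it was -0.41 with it.

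At the mean bulb score the difference of fluoxetine from HT vehicle was 0.30 ± 0.08 in Homer1, and that of lithium 0.08 ± 0.08. In that fit limma called 0.0238% and 0.0119% of genes and 0 of 7 members, and likewise 0 of 7 for lithium against fluoxetine (0.0713% of genes) and for fluoxetine and lithium against WT vehicle (0.0416% and 0.0238%). HT fluoxetine libraries then ran from 3684 to 4899 normalised counts, with 1 of 6 below the lowest WT vehicle value. HT lithium libraries ran from 2831 to 3922, with 4 of 6 below it. For these counts too, the share over all genes was not computed.

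Homer2 and Homer3, the other adaptors of the family, differed little between arms and strongly between bulb-high and other libraries. Homer2 (ENSMUSG00000025813, chromosome 7, 81600481 to 81707527, minus strand) had a mean of 2976 ± 594 (SD, n = 6) in WT vehicle, 2745 ± 570 in HT vehicle, 3057 ± 491 in HT fluoxetine and 2882 ± 405 in HT lithium. Single libraries of Homer2 ran from 2329 to 4022 (median 2886) normalised counts in WT vehicle, 1965 to 3454 (median 2599) in HT vehicle, 2554 to 3857 (median 2988) in HT fluoxetine and 2559 to 3676 (median 2790) in HT lithium. All 4 ranges overlapped. Its log2 difference between HT vehicle and WT vehicle was -0.12 ± 0.15, and -0.05 ± 0.11 at the mean bulb score. In the 6 bulb-high libraries Homer2 ran from 3322 to 4022 with a median of 3565, above every one of the other 18, which ran from 1965 to 3189 with a median of 2649. The ratio of the 2 means was 1.35.

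Homer3 (ENSMUSG00000003573, chromosome 8, 70282827 to 70294361, plus strand) stood at 243 ± 64.0 (SD, n = 6) in WT vehicle, 252 ± 94.8 in HT vehicle, 268 ± 95.7 in HT fluoxetine and 237 ± 100 in HT lithium. Single libraries of Homer3 ran from 173 to 358 (median 235) normalised counts in WT vehicle, 171 to 375 (median 208) in HT vehicle, 176 to 409 (median 238) in HT fluoxetine and 161 to 431 (median 196) in HT lithium. Bulb-high libraries held 357 to 431 normalised counts and the other 18 held 161 to 267, a ratio of 1.86 between the means. For 8.46% of genes all 6 bulb-high libraries lay above the other 18. The HT vehicle difference from WT vehicle was 0.01 ± 0.27 and moved to 0.19 ± 0.13 with the bulb score as a covariate. That of fluoxetine from HT vehicle moved from 0.09 ± 0.27 to -0.08 ± 0.13, so its sign depended on the covariate.

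Of the Shank scaffolds, Shank1 (ENSMUSG00000038738, chromosome 7, 44310253 to 44360572, plus strand) had arm means of 19561 ± 1250 (SD, n = 6) in WT vehicle, 18314 ± 2030 in HT vehicle, 18332 ± 2470 in HT fluoxetine and 19867 ± 2630 in HT lithium. Single libraries of Shank1 ran from 17720 to 20974 (median 19865) normalised counts in WT vehicle, 16019 to 20988 (median 18007) in HT vehicle, 15814 to 21180 (median 17967) in HT fluoxetine and 15439 to 22641 (median 20177) in HT lithium. The arms overlapped. Of the HT vehicle libraries, 3 of 6 lay below the lowest WT vehicle library, among them the bulb-high HT vehicle female 2 (16670) and male 3 (16019). The share of all genes with such a count was not computed, so nothing is read from it. The log2 difference between HT vehicle and WT vehicle was -0.10 ± 0.10, and -0.16 ± 0.05 at the mean bulb score.

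Shank2 (ENSMUSG00000037541, chromosome 7, 144001928 to 144424494, plus strand) stood at 7414 ± 549 (SD, n = 6) in WT vehicle, 7072 ± 776 in HT vehicle, 7046 ± 825 in HT fluoxetine and 7438 ± 1020 in HT lithium. Its libraries covered 6473 to 8002 in WT vehicle and 6057 to 7989 in HT vehicle, with overlap. Its difference between HT vehicle and WT vehicle was -0.07 ± 0.10, and -0.13 ± 0.06 with the covariate. Shank3 (ENSMUSG00000022623, chromosome 15, 89499623 to 89560261, plus strand) stood at 6955 ± 789 in WT vehicle, 6987 ± 967 in HT vehicle, 6502 ± 1090 in HT fluoxetine and 7213 ± 1330 in HT lithium. Its difference was 0.00 ± 0.14 (95% interval -0.29 to 0.29), and -0.09 ± 0.07 with the covariate. In both genes the bulb-high libraries set the lower end of each arm: Shank3 ran from 4916 to 5818 in them and from 6667 to 8546 in the other 18, and Shank2 from 5692 to 6473 and from 6830 to 8438. All 6 lay below the other 18 for 9.91% of genes.

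The receptor gene Grm5 (ENSMUSG00000049583, chromosome 7, 87584168 to 88134907, plus strand) stood at 4878 ± 443 (SD, n = 6) in WT vehicle, 4583 ± 680 in HT vehicle, 4593 ± 926 in HT fluoxetine and 4628 ± 532 in HT lithium. Single libraries of Grm5 ran from 4118 to 5475 (median 4939) normalised counts in WT vehicle, 3692 to 5218 (median 4862) in HT vehicle, 3103 to 5722 (median 4924) in HT fluoxetine and 3859 to 5066 (median 4877) in HT lithium. The lowest in each arm is a bulb-high library. The difference between HT vehicle and WT vehicle was -0.10 ± 0.13, and -0.18 ± 0.07 at the mean bulb score. The ratio of the bulb-high mean to the mean of the other 18 was 0.753 for Grm5.

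Against HT vehicle, the differences of the Shank scaffolds and Grm5 lay between -0.11 and 0.11 with either drug when the bulb score was not in the fit. With fluoxetine the log2 differences were 0.00 ± 0.10 for Shank1, -0.01 ± 0.10 for Shank2, -0.11 ± 0.14 for Shank3 and -0.01 ± 0.13 for Grm5. With lithium they were 0.11 ± 0.10, 0.07 ± 0.10, 0.04 ± 0.14 and 0.02 ± 0.13 in the same order. With batch as a term the lithium differences were 0.04 for Shank1, -0.04 for Shank2, -0.09 for Shank3 and -0.03 for Grm5, so the sign of the last 3 depended on that term. Homer2 was at 0.17 ± 0.15 with fluoxetine and 0.09 ± 0.15 with lithium, and Homer3 at -0.10 ± 0.27 with lithium. At the mean bulb score the fluoxetine differences were 0.06 ± 0.05 for Shank1, 0.05 ± 0.06 for Shank2, -0.03 ± 0.07 for Shank3, 0.07 ± 0.07 for Grm5 and 0.10 ± 0.11 for Homer2. The lithium differences were 0.12 ± 0.05, 0.08 ± 0.06, 0.05 ± 0.07, 0.03 ± 0.07 and 0.08 ± 0.11 in the same order, and -0.12 ± 0.13 for Homer3. The score thus turned the sign of the fluoxetine difference in Shank2, Grm5 and Shank1, whose negative value rounds to 0.00. Without the score these differences were smaller than their SE, so nothing is read from the sign.

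**Figure D2:**
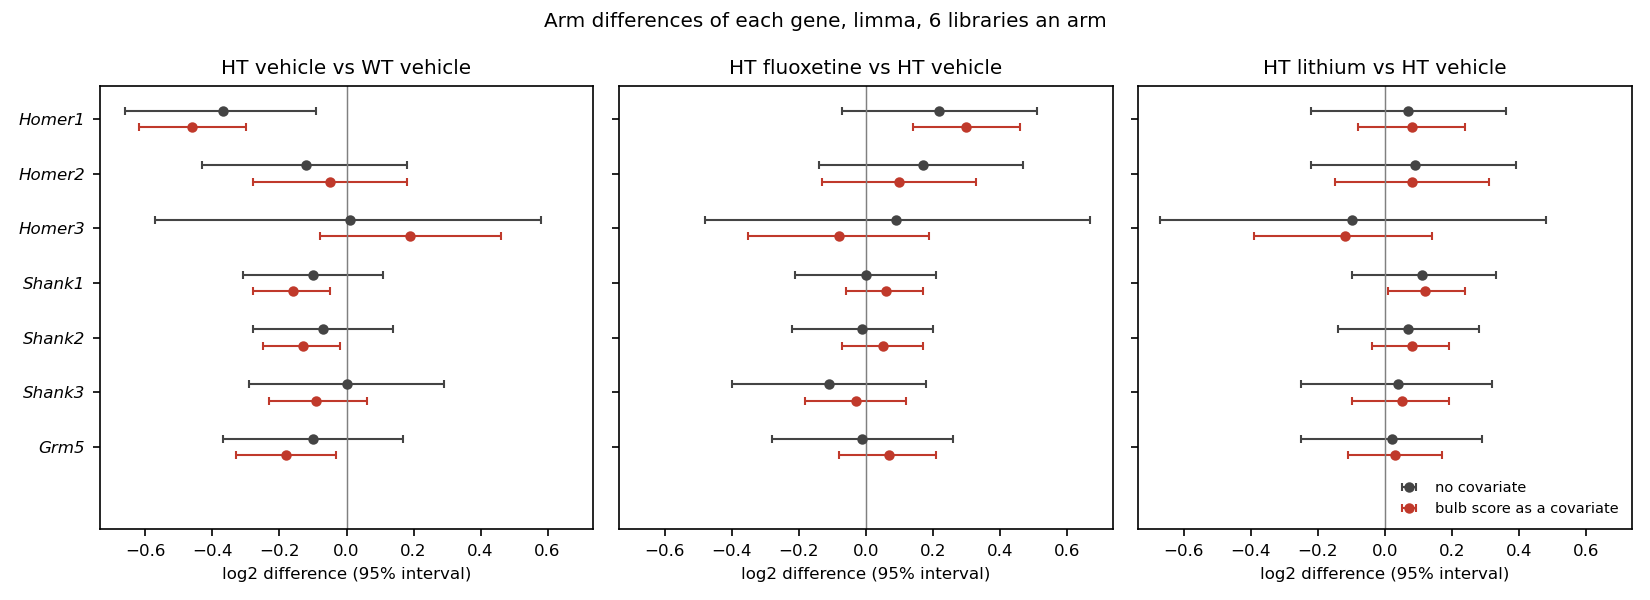
Log2 differences (x axis) with 95% intervals of the 7 genes (y axis) for HT vehicle against WT vehicle and for each drug against HT vehicle, from limma without (grey) and with (red) the bulb score as a covariate. Homer1 in the first panel lies at -0.37 and -0.46, the farthest from 0 of the genes shown, and the intervals of Homer3 narrow with the covariate.

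The members split by sign in their relation to the bulb score. Per unit of the score, across 24 libraries with group means removed, Homer3 was higher by 0.158 ± 0.0191 (SE, log2) and Homer2 by 0.0617 ± 0.0165. The slopes were -0.0769 ± 0.0106 for Shank3, -0.0736 ± 0.0114 for Homer1, -0.0714 ± 0.0103 for Grm5, -0.0552 ± 0.00812 for Shank1 and -0.0534 ± 0.0084 for Shank2. A slope on this score was called for 50.7% of all genes, so a slope is not particular to these. Within the 18 other libraries, where 6.25% of genes were called, the slope of Homer3 was 0.0852 ± 0.0238 and that of Homer1 -0.0802 ± 0.0196. The slopes of Shank3 (-0.0370 ± 0.0089), Grm5 (-0.0325 ± 0.0114) and Shank2 (-0.0316 ± 0.0101) were nearer to 0 than over 24 libraries, that of Shank1 was -0.0484 ± 0.0112, and that of Homer2 was -0.000421 ± 0.0191.

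Marker sums of some other cell types, but not all, separated the same libraries. The 8 cortical excitatory markers summed to 38051 to 45400 in the bulb-high libraries and to 54726 to 69118 in the other 18. The 6 inhibitory markers summed to 31562 to 40612 and to 16175 to 27385, and the 6 astrocyte markers to 34394 to 40262 and to 25663 to 33606. The 10 markers of striatal projection neurons summed to 6795 to 8025 and to 8638 to 41953. Sums overlapped for myelin (77887 to 114965 and 60861 to 130196) and microglia (7317 to 9009 and 7472 to 9589). Those for red blood cells and choroid plexus overlapped as well. Of the defining bulb genes, Eomes was at 0 in 1 library, while Cdhr1 and Doc2g were above 0 in all 24. The part of these cells in the values of the 7 genes was not tested, and in bulk tissue fewer cells of a type and less RNA per cell cannot be told apart.

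**Figure D3:**
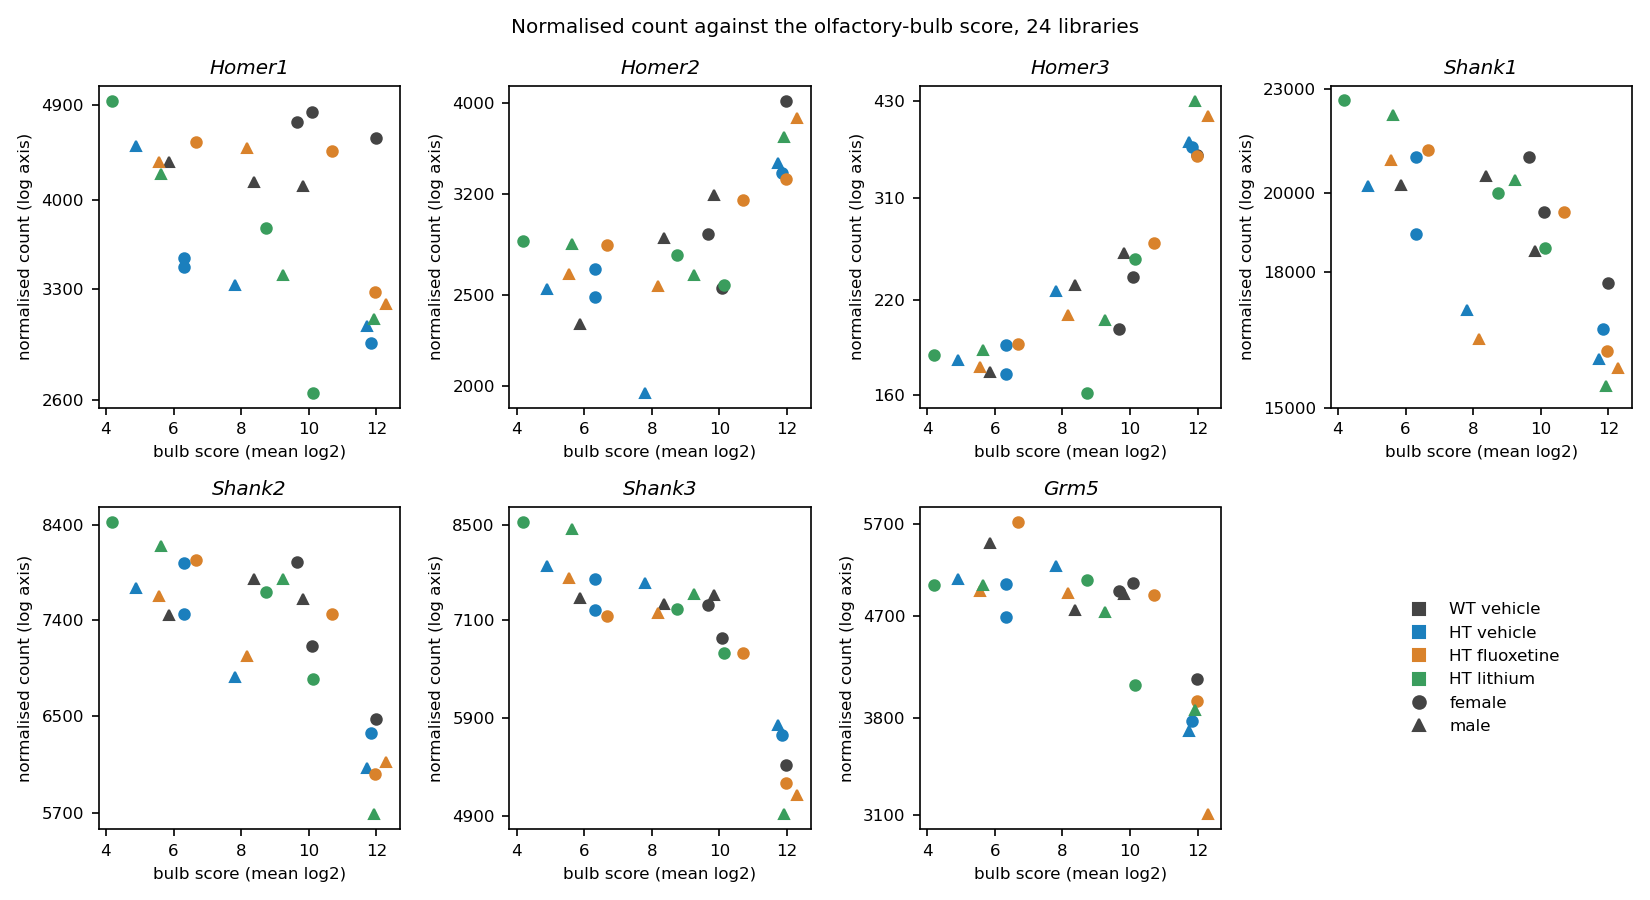
Normalised counts of each gene (log2-spaced y axis) against the bulb score (x axis, mean log2(value + 1) of Cdhr1, Doc2g and Eomes) in 24 libraries, coloured by arm, with circles for females and triangles for males. The 6 bulb-high libraries at the right hold the highest Homer2 and Homer3 and the lowest Shank2 and Shank3, and WT vehicle female 2 keeps 4564 counts of Homer1 where the other 5 hold 2937 to 3280.

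Sex was not used to choose the genes and was tested. Limma called 0 of 7 members between males and females, against 14 of 16825 genes (0.0832%), and no member had an unadjusted p under 0.05; edgeR and DESeq2 also called 0 of 7. At the mean bulb score the count was 0 of 7 as well (0.0773% of genes), and Shank1 had an unadjusted p under 0.05, at -0.10 ± 0.04. The log2 differences ran from -0.06 ± 0.07 for Shank1 (95% interval -0.21 to 0.09) to 0.04 for Homer3 and Shank3. A difference between the sexes in an arm effect was called for 0 of 7 members in each of 3 comparisons, and for 0% of all genes, while 365, 180 and 274 genes had an unadjusted p under 0.05 and no member was among them. With the bulb score in the fit 418, 357 and 424 genes did, among them Homer1 in the first comparison and Grm5 (-0.30 ± 0.14) in the second, and limma again called 0 genes. DESeq2 also called 0 of 7 in each, and in HT vehicle against WT vehicle 0.00594% of genes. For Homer1 the difference of HT vehicle from WT vehicle was 0.28 ± 0.27 higher in males than in females (95% interval -0.29 to 0.85). At the mean bulb score it was 0.46 ± 0.15 (limma adjusted p = 1), so an unequal effect in the sexes was not resolved by these groups of 3.

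How the genes varied together was tested on residuals from the group means. The choice of members knew fits with the bulb score, whose slope is estimated from such residuals. The correlations are therefore not fully independent of that choice. The 6 bulb-high libraries stood apart from the others in Homer2, Homer3, Shank2 and Shank3, so correlations were computed within the other 18. The p-values came from 100000 permutations within groups and were adjusted over 21 pairs. Each group that held a bulb-high library was left with fewer libraries to permute, so distinct permutations were few. A pair that did not pass is therefore not shown to be unrelated. The bulb score was not removed in these 18, where it still ran from 4.192 to 10.695. Among the Shank genes, Pearson's r was 0.87 for Shank2 and Shank3 (permutation p = 0.00495, adjusted 0.0346), 0.86 for Shank1 and Shank2 (permutation p = 0.00265, adjusted 0.0346) and 0.76 for Shank1 and Shank3 (permutation p = 0.00348, adjusted 0.0346). Spearman's rho was 0.81, 0.87 and 0.80 (permutation p = 0.00495, 0.00221 and 0.00542, each adjusted 0.0379). Without the 2 libraries farthest from the median of the first gene, r was 0.73, 0.90 and 0.80. These were the 3 pairs of 21 that passed. High values of r were shared with other genes: 0.921% of all genes had an r with Shank2 at least as high as that of Shank3, 0.898% one with Shank1 at least as high as that of Shank2, and 3.53% one with Shank1 at least as high as that of Shank3. All 3 Shank genes also sloped down on the bulb score within these 18 libraries, and its part in these correlations was tested only by the linear removal over 24 libraries.

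Homer1 had an r of 0.83 with Shank3, 0.78 with Shank2 and 0.63 with Shank1 in the same 18 libraries, and none passed (permutation p = 0.0662, 0.0658 and 0.0506, adjusted 0.139, 0.139 and 0.133). Spearman's rho for these pairs was 0.44, 0.41 and 0.49 (permutation p = 0.207, 0.281 and 0.159, adjusted 0.299, 0.347 and 0.278). Without the 2 farthest libraries, Pearson's r dropped to 0.48, 0.50 and 0.49. The lowest r was that of Homer3 with Grm5, -0.82 (permutation p = 0.0251, adjusted 0.112), with a rho of -0.68 (permutation p = 0.0498, adjusted 0.137), and it was -0.71 without the 2 farthest libraries. Over all 24 libraries 20 of 21 pairs passed before the bulb score was removed as a linear term and 8 after it. Of the Shank pairs, Shank1 with Shank3 did not pass after it (r = 0.56, permutation p = 0.0431, adjusted 0.099), and the other 2 did, at 0.80 and 0.85. The share of all gene pairs that would pass over 24 libraries was not computed, and 50.7% of all genes had a called slope on the score. The counts of 20 and 8 are therefore not read as particular to these genes.

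**Figure D4:**
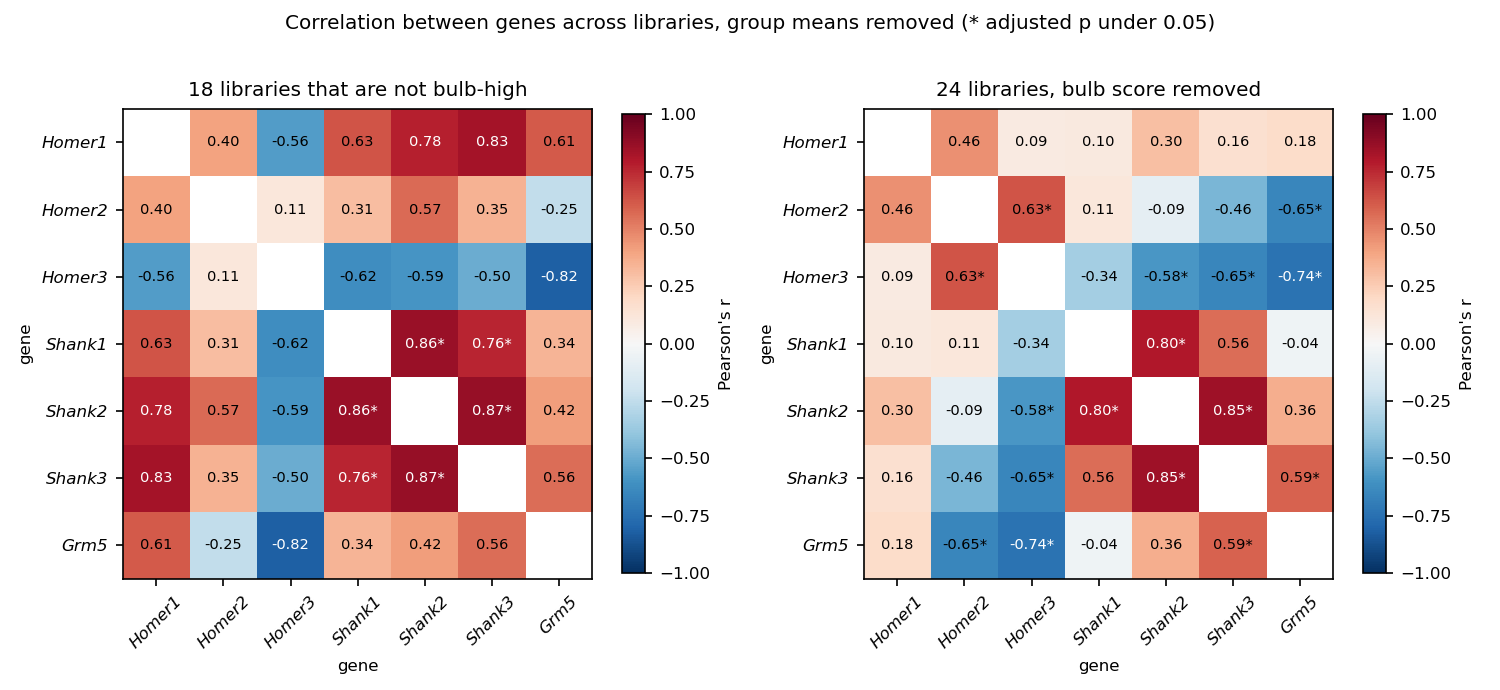
Pearson's r between the 7 genes (both axes) on residuals from group means, within the 18 libraries that are not bulb-high (left) and in 24 libraries with the bulb score removed (right), on a colour scale from -1 to 1, with a star at an adjusted p under 0.05. The 3 Shank pairs carry stars on the left, at 0.76 to 0.87, and Homer1's row changes from 0.83 with Shank3 on the left to 0.16 on the right.

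Genes whose pattern across the 24 libraries was most like that of each member were listed by r on residuals from the 8 group means, as a description with libraries and depth shared between genes. For Homer1 the closest were the transferrin receptor Tfrc (r = 0.937), Ano3 (0.932), the RNA-binding protein gene Zfr (0.930), Vkorc1l1 (0.926), Usp12 (0.923), Gpcpd1 (0.922), the plasma membrane calcium pump Atp2b1 (0.919), Usp15 (0.918), Ppp2r2d (0.913) and Klhl23 (0.910). With the bulb score removed, the activity-induced transcription factor Egr3 came first (0.842), followed by Pdcd10 (0.832), Tfrc (0.822) and Ano3 (0.820). Without that removal, the genes closest to Homer2 were Cpne8 (0.960), Dleu2 (0.943) and Dab2 (0.940), and for Homer3 Svil (0.990), Cnn3 and Fgfr2 (both 0.983).

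Also without removal of the bulb score, the gene closest to Shank1 was the calcium channel Cacna1a (0.982), before Gm21955 (0.980) and the potassium channel Kcnk9 (0.968). For Shank2 these were Kctd16 (0.971), Galt (0.970) and Slit2 (0.969). For Shank3 they were 5730409E04Rik (0.988), Dab2ip (0.986) and Dlgap3 (0.985), which encodes a scaffold that binds Shank proteins. With the score removed, those closest to Shank3 were C130026L21Rik (0.974), Itpka (0.965) and Dab2ip (0.951), and Dlgap3 was no longer among them. For Grm5 the closest without that removal were Ppp1r9a (0.981), which encodes the actin-binding neurabin, Reep5 (0.979) and Tomm70a (0.977).

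Partners of these proteins were taken from 5 lists of 82 distinct genes that were tested. Limma called 0 of the 82 in HT vehicle against WT vehicle, with 5 at an unadjusted p under 0.05 (6.10%, against 2.70% of all genes), where edgeR and DESeq2 also called 0. It called 0 for fluoxetine and 0 for lithium against HT vehicle, with 3 and 4 at an unadjusted p under 0.05 (3.66% and 4.88%, against 5.71% and 2.75% of all genes), and edgeR and DESeq2 again called 0. All genes were called at 0%, 0.0119% and 0.0119%. Fits that held the bulb score gave 0 as well. There 18, 8 and 7 of the 82 had an unadjusted p under 0.05 (22.0%, 9.76% and 8.54%), against 9.16%, 7.60% and 4.83% of all genes. The lists were chosen with earlier results of these data known, so these shares are a description and nothing is read from them. Values of single partner genes are given without the score.

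The 19 genes of group I receptor signalling had 14 lower in HT vehicle than in WT vehicle, with a median log2 difference of -0.05 against -0.0024 over all genes, of which 48.7% were higher. At the mean bulb score 15 were lower and the median was -0.101, against 0.0011 over all genes, of which 50.5% were higher. Those with the smallest p were the receptor scaffold Grasp (-0.12 ± 0.06), the phospholipase Plcb3 (0.12 ± 0.08) and the kinase Prkca (-0.15 ± 0.11). Grasp was 0.08 ± 0.06 with fluoxetine and 0.12 ± 0.06 with lithium against HT vehicle, while Itpr2 and Gna11 were at -0.08 ± 0.05 and -0.06 ± 0.06 with fluoxetine and Plcb4 at -0.10 ± 0.07 with lithium. The other metabotropic receptors, 5 of 6 listed, had medians of -0.005 in HT vehicle, 0.004 with fluoxetine and -0.03 with lithium, and of -0.05, -0.028 and -0.038 at the mean bulb score. Among them were Grm8 (-0.11 ± 0.12, 0.13 ± 0.12 and -0.03 ± 0.12 in the 3 comparisons), Grm2 (0.06 ± 0.12 in HT vehicle and -0.05 ± 0.12 with lithium), Grm4 (-0.13 ± 0.33 and -0.09 ± 0.33), and, with fluoxetine, Grm3 (-0.15 ± 0.18) and Grm7 (-0.10 ± 0.12).

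The 12 Homer ligands had 10 lower in HT vehicle, with a median of -0.021, and 7 lower at the mean bulb score, with a median of -0.028. The ryanodine receptor Ryr3 stood at 0.25 ± 0.20, the endocytic dynamin Dnm3 at -0.10 ± 0.06 and the channel Trpc1 at -0.14 ± 0.15. With lithium against HT vehicle, Ryr1 stood at -0.43 ± 0.18, from 2001 ± 399 to 1477 ± 191 normalised counts (SD, n = 6), Ryr3 at -0.32 ± 0.20 and Dbn1 at 0.06 ± 0.05. With fluoxetine, Ryr3 stood at -0.27 ± 0.20 and Ryr1 at -0.17 ± 0.18.

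Of 27 Shank partners and other postsynaptic scaffolds, 20 were lower in HT vehicle than in WT vehicle, with a median of -0.025, and 21 at the mean bulb score, with a median of -0.062. Dlgap4, of the scaffold family between Shank and PSD-95, stood at 7781 ± 488 (SD, n = 6) in WT vehicle, 7160 ± 195 in HT vehicle, 7842 ± 317 in HT fluoxetine and 7503 ± 291 in HT lithium. Its differences were -0.12 ± 0.04 for HT vehicle, 0.13 ± 0.04 for fluoxetine and 0.07 ± 0.04 for lithium (limma adjusted p = 1, 0.55 and 1), in comparisons that share the HT vehicle libraries. The exchange factor Arhgef7, a Shank binding partner, stood at -0.08 ± 0.04, 0.08 ± 0.04 and 0.09 ± 0.04 in the same order. Dlgap1 was at -0.10 ± 0.07 in HT vehicle, the adhesion molecule Nlgn3 at -0.08 ± 0.05 with fluoxetine and Sipa1l1 at -0.07 ± 0.05 with lithium.

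Of 22 activity-induced genes, 15 were lower in HT vehicle (median -0.075), and 13 at the mean bulb score (median -0.046), and the smallest p-values were those of the prohormone convertase Pcsk1 (-0.26 ± 0.09), the sorting receptor Sorcs3 (-0.14 ± 0.06) and the phosphatase Dusp1 (0.40 ± 0.19). With fluoxetine, the transcription factor Npas4 stood at -0.84 ± 0.31, Pcsk1 at 0.21 ± 0.09 and Dusp1 at -0.34 ± 0.19. With lithium, 19 of 22 were higher than in HT vehicle (median 0.142, against -0.0009 over all genes, of which 49.5% were higher). The smallest p-values were those of the pentraxin Nptx2 (0.17 ± 0.07), Egr4 (0.37 ± 0.17) and Egr1 (0.25 ± 0.13). Lithium and batch cannot be told apart here. The difference of HT vehicle from WT vehicle was higher in males than in females for 21 of 22 of these genes. The median was 0.656, against 0.0039 over all genes, of which 50.9% were higher. Of the 22, 9 had an unadjusted p under 0.05 and limma called 0. At the mean bulb score this difference of HT vehicle from WT vehicle was higher in males than in females for all 22. The median was 0.40 against 0.0077 over all genes, of which 52.5% were higher. Of the 22, 8 had an unadjusted p under 0.05 and limma again called 0. These genes share the same libraries, 3 a group, so they are not separate agreements and nothing is read from the counts.

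Because Homer1 includes an activity-induced form, its residuals were also compared with those of the 22 genes, a comparison chosen after the data had been seen. Within the 18 libraries that are not bulb-high, where the bulb score was not removed, 0 of 22 passed by Pearson's r after adjustment. Of the 22 values of r, 13 were above 0. Distinct permutations within these groups were few, so a high r could fail to pass. By Spearman's rho 1 passed, the neuropeptide precursor Vgf, at 0.77 (permutation p = 0.00197, adjusted 0.0433), whose r was 0.43 (permutation p = 0.00727, adjusted 0.0901). The highest r was that with Bdnf, 0.91 (permutation p = 0.0322, adjusted 0.177), followed by Nrn1 at 0.87 (permutation p = 0.0522, adjusted 0.191) and Pcsk1 at 0.84 (permutation p = 0.0117, adjusted 0.0901). Ptgs2 stood at 0.77 (permutation p = 0.0123, adjusted 0.0901). Fos stood at -0.24 (permutation p = 0.324, adjusted 0.722), Arc at 0.11 and Npas4 at 0.04. Over 24 libraries with the bulb score removed as a linear term, 14 of 22 passed, all with r above 0, among them Fos at 0.64 (permutation p = 0.0009, adjusted 0.005). Over the same 24 libraries without that removal, 10 of 22 passed, 7 with r above 0 and 3 below, and Fos stood at -0.38 (permutation p = 0.0581, adjusted 0.116). The sign of r with Fos thus depended on the removal of the bulb score. The share of all genes that would pass with Homer1 was not computed, so the counts of 14 and 10 are not read as particular to these genes. The WT vehicle males had Homer1 between 4119 and 4339 with Fos between 315.8 and 1041, and the WT vehicle females Homer1 between 4564 and 4827 with Fos between 874 and 2894.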

How the data were processed

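Bulk RNA of prefrontal cortex was sequenced from 24 libraries prepared with a stranded mRNA kit, per the labels' protocols. The deposited table holds gene-level normalised signal, whole read counts divided by a size factor for each library, on GRCm38. The submitters' processing notes name Salmon 0.11.2, R 3.6.0 and DESeq2 1.19.11. Whether counting used strand is not stated there. Of 18240 gene identifiers, 18227 matched the annotation and 13 did not. Whole reads were recovered from the step between low values, to within 0.01 read.

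Groups came from the sample labels. In R 4.3.3, limma 3.58.1 was fitted with an intensity trend to log2(value + 1) of 16825 genes with a mean of at least 10, with 8 group means of arm and sex, and p-values were adjusted by Benjamini-Hochberg over all genes with a threshold of 0.05. Differences are on that log2(value + 1) scale, which understates the change of low genes. The edgeR 4.0.16 quasi-likelihood test and DESeq2 1.42.0 were run on the recovered reads. Correlations used residuals from group means and 100000 two-sided permutations within groups. Scripts were tested on simulated data. The named genes are all 7 members, the genes most like each (10 for Homer1 and 3 for the others), and in each partner list and arm comparison the 3 genes with the smallest p, of which some are not reported here. The members and lists were chosen with earlier results of these data known. The correlations within 18 libraries, and the fits that joined the bulb score with omitted libraries, were added after seeing the data. Marker lists were summed for 9 cell types or tissues. Myelin sums ran from 60861 to 130196, microglia sums from 7317 to 9589, red blood cell sums from 3069 to 12366 and choroid plexus sums from 62 to 3857 over the 24 libraries.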

Additional observations from a re-analysis of the deposited data

Results flagged for a closer look

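In groups of 6 libraries, 28 sets of values were examined for a library far from the others, a rule by which chance marks about 1 in 20. Homer2 stood at 3676 normalised counts in HT lithium male 1, where the other 5 lithium libraries ran from 2558.7 to 2851.9, and the gap was 0.738 of the range. Homer3 stood at 431 in the same library, where the others ran from 161.1 to 252.5, a gap of 0.661. Shank3 stood at 5401 in WT vehicle female 2, where the others ran from 6860.7 to 7446.6, a gap of 0.714. Each is the bulb-high library of its arm.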

How the results depend on the processing

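Homer1 was lower in HT vehicle than in WT vehicle in 39 of 39 alternatives, by log2 differences from -0.50 to -0.29. The alternatives refit the same libraries and the choice of genes used this comparison, so nothing is read from that count. With the bulb score as a covariate, 1 member was called in that comparison and 5 genes. For fluoxetine against HT vehicle, 2 genes were called, and DESeq2 called 16, the bulb covariate 4 and batch as a term 1. It was 0 without the 6 bulb-high libraries, without the 4 libraries high in Drd2 or Ttr, within P40_L1 and with only the groups compared, and 87 and 0 with the covariate and those 6 or 4 libraries left out. For lithium against HT vehicle, 2 were called, with 0 at a pseudocount of 5, 1 at a minimum mean of 50, 0 by edgeR, 1 and 0 without the 6 or the 4 libraries, 1 with batch as a term, 4 with only the groups compared, and 0 with the covariate and either set left out. For lithium against fluoxetine, 4 were called, with 30 by DESeq2, 12 with the covariate, 2 and 0 without the 6 or 4 libraries, 1 with batch, 0 with only the groups compared, and 127 and 0 with the covariate and either set left out. Fluoxetine against WT vehicle gave 0, with 1 at a minimum mean of 50, 18 by DESeq2 and 7 with the covariate, and lithium against WT vehicle gave 0, with 5, 4 and, with batch, 1. DESeq2 called 1 gene for the difference between the sexes in HT vehicle against WT vehicle, and the fit of only the groups compared called 1 for that in lithium against HT vehicle. The causes were not tested.

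Leaving out 1 library gave 0 to 1 called genes for HT vehicle against WT vehicle (1 without WT vehicle male 2), 0 to 2 for fluoxetine and 0 for lithium against HT vehicle, 0 to 6 for lithium against fluoxetine (6 without HT fluoxetine female 3), 0 to 3 and 0 to 1 for fluoxetine and lithium against WT vehicle (3 without WT vehicle male 2, 1 without WT vehicle male 1), 13 to 15 between the sexes, 0 for the differences between the sexes, and 0 members throughout. The labels do not say that replicate numbers pair animals. With a replicate block, 0 genes were called for fluoxetine and for lithium against HT vehicle and 7 for lithium against fluoxetine.

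Of 21 correlations, 20 passed over 24 libraries, 8 with the bulb score removed and 3 within the 18 libraries. No share over all gene pairs was computed beside these counts. With the score removed, r changed sign for Homer1 with Homer2 (0.46) and Homer3 (0.09), Homer2 with Shank1 (0.11) and Shank1 with Grm5 (-0.04). Within the 18 it changed sign for Homer1 with Homer2 (0.40) and Homer2 with Shank1 (0.31), Shank2 (0.57) and Shank3 (0.35). With 6 libraries an arm, small differences could not be resolved.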
